A study of Mus musculus with 18 samples.

Results

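The comparison described here set mouse cells caught midway through reprogramming, 7 days after the reprogramming factors were switched on, against the induced pluripotent stem cell (iPSC) line obtained at the end of the same route. Its members were chosen by title: 2 arrays of reprogramming cells at day 7 and 2 arrays of iPSC, 4 of the 18 arrays of the series, with all 20233 genes that a RefSeq probe set could be matched to. The cells are a secondary system: fibroblasts from embryos made wholly of iPSC by tetraploid complementation, taken at E13.5 and used at passage 4, carried Oct4-GFP, a fluorescent reporter of the Oct4 gene, together with Rosa26-M2rtTA, a ubiquitously driven transactivator that responds to doxycycline, and the doxycycline-inducible transgenes of the 4 factors, Oct4 (Pou5f1), Klf4, Sox2 and c-Myc (Myc). The day 7 cells, for which the labels name no sorting, were plated on gelatin in serum and LIF with 1 µg/ml doxycycline and 50 µg/ml vitamin C. The iPSC were 1 established line of the same origin, free of both additives, in serum and LIF with 2i, a pair of inhibitors of the kinases Gsk3 and Mek; the line was kept with or without feeder fibroblasts, and which of these applied to the arrays is not given in the sources used here. The factors, the additives, the inhibitors and any feeder cells therefore change together between the groups and cannot be told apart. The other 14 arrays hold day 0, 1, 3, 5, 11, 15 and 18 (the last 72 hours after withdrawal of the drug) and were used for the spread and for the course of each gene.

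Pluripotent mouse cells are held by a network of transcription factors around Oct4 (gene Pou5f1), Sox2, Nanog and Esrrb, which activate one another and a set of targets that fibroblasts keep silent under DNA methylation and Polycomb marks. Reprogramming of fibroblasts is known to pass through a phase in which the mesenchymal programme is lost and epithelial genes appear, and through a later phase in which the network no longer depends on the introduced factors. In between, genes of tissues unrelated to either end can be expressed for a time.

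All levels are log2 values after RMA, the normalization the authors used, and a difference is day 7 minus iPSC, so that 1 stands for a 2-fold change. A gene was called where limma's Benjamini-Hochberg adjusted p was under 0.05 and the difference was at least 1 in size. A level of 5.32, the 95th percentile of 1075 olfactory receptor genes, served as background, and where the lower of the groups lies under it the difference is only a bound. The 2 arrays of a group correlated at 0.998 for day 7 and 0.997 for iPSC, and 6 and 16 genes differed over 2-fold between them. The labels do not say that the arrays of a group came from separate cultures, so every p-value measures the spread between these arrays, which may be technical. In bulk RNA, fewer cells of a type and less RNA per cell cannot be told apart.

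On day 7, most genes of the pluripotency network and many of the germline were lower than in iPSC, as were many fibroblast matrix and contractile genes, while 17 of 29 epidermal, 11 of 24 neural and 9 of 22 growth-factor response genes were higher. In all, 1316 genes (6.5% of those tested) were higher on day 7 than in iPSC and 1579 (7.8%) were lower, together 14.3%. The arrays of the groups did not overlap in any of the 2895 called genes. The threshold on the difference largely ensures this for arrays so close to each other, so it adds no support. Another 5676 genes lay under background in both groups. The size of the difference nearest the threshold was 1.0004 among called genes and 0.9995 just outside it.

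**Figure D1:**
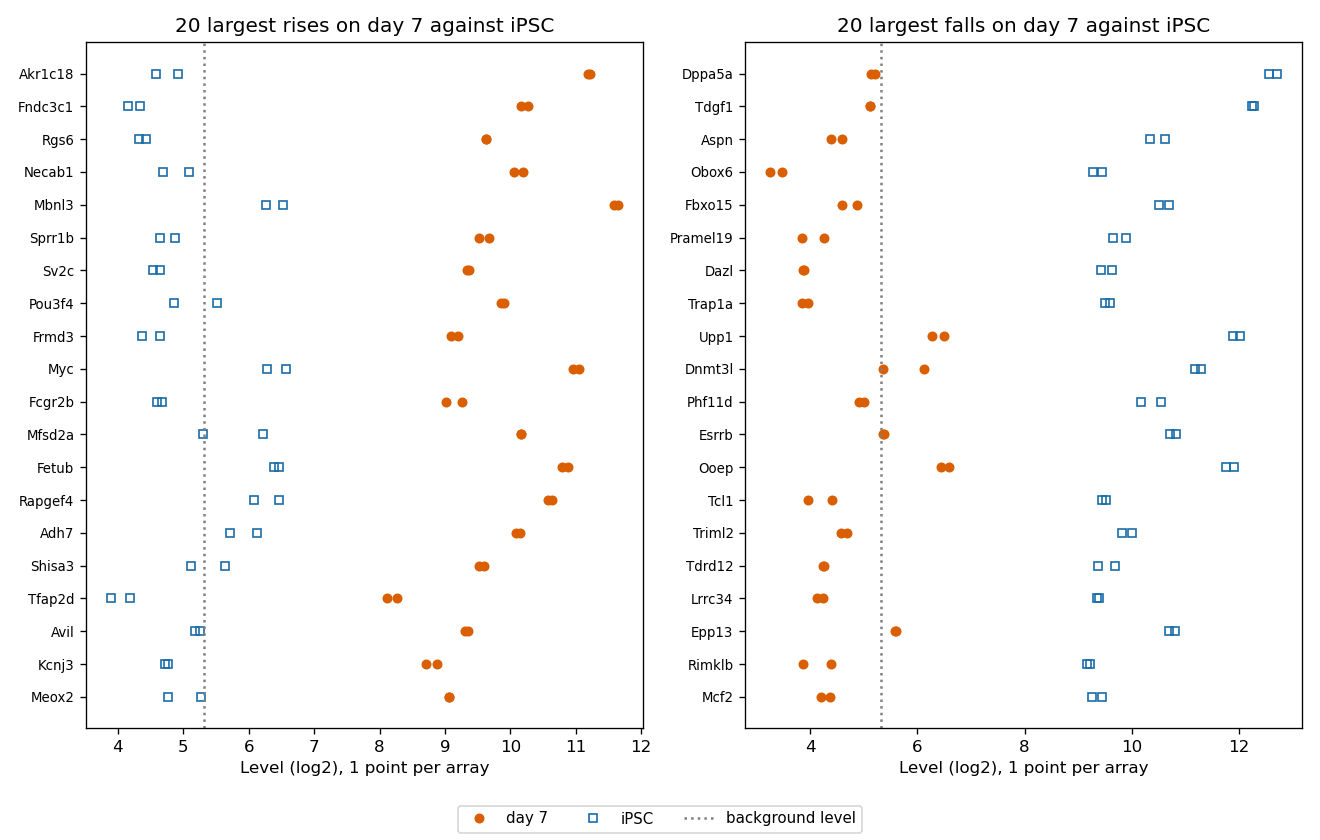
Levels (log2, x axis) of the 20 genes with the largest rise (left panel) and the 20 with the largest fall (right panel) on day 7 against iPSC; filled circles are the 2 day 7 arrays, open squares the 2 iPSC arrays, and the dotted line is the background level of 5.32. In 13 of the left panel the iPSC level, and in 15 of the right panel the day 7 level, lies under background.

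Many of the genes furthest below iPSC on day 7 are known from pluripotent cells, the oocyte or the germline. Dppa5a, an RNA-binding protein of pluripotent cells, read 5.14 and 5.20 on day 7, against 12.56 and 12.70 in iPSC. The day 7 value lies under background, so the gene was lower by at least 7.31 on the log2 scale (adjusted p = 1.35e-13, limma). Tdgf1, the Nodal co-receptor Cripto, read 5.12 and 5.12 on day 7, against 12.24 and 12.27 in iPSC, and was lower by at least 6.94 on the same scale. Neither gene was above background on day 7. Fbxo15, an F-box protein often used as a reporter gene of reprogramming, read 4.59 and 4.88 on day 7, against 10.51 and 10.69 in iPSC. Dnmt3l, the catalytically inactive cofactor of the de novo DNA methyltransferases, read 5.37 and 6.12 on day 7, against 11.19 and 11.30 in iPSC, and its day 7 arrays lay further apart than its iPSC arrays. Upp1, uridine phosphorylase, differed by -5.57 ± 0.12 (SE), and Tcl1, a coactivator of the kinase Akt that lay under background on day 7, was lower by at least 4.16. Aspn, the matrix proteoglycan asporin, is the one gene among these 20 whose day 0 level (10.99) was closer to iPSC than to day 7. For the other 19 it was closer to day 7.

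Of the early pluripotency list, 18 of 20 measured genes fell, 1 rose and 1 was not called (median difference -2.94, against 0.06 for all genes). Nanog and Sox2 lay between the fibroblasts and iPSC. Nanog read 9.73 and 9.66 on day 7, against 12.52 and 12.43 in iPSC, with a day 0 mean of 5.65. Sox2 read 9.44 and 9.38 on day 7, against 12.24 and 12.35 in iPSC, with a day 0 mean of 5.78. On day 7 these 2 genes were 2.78 and 2.89 below iPSC on the log2 scale. Sall4, a zinc finger partner of Oct4, read 6.99 and 6.93 on day 7, against 10.70 and 10.67 in iPSC, and Utf1, a chromatin-associated factor, read 5.92 and 6.31 on day 7, against 10.27 and 10.45 in iPSC. Fgf4, the growth factor that Oct4 and Sox2 jointly activate, differed by -3.59 ± 0.12. Lin28a, which blocks the maturation of let-7, differed by -2.04, and Mycn by -2.99.

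Pou5f1 was the exception. Its level was 12.34 and 12.30 on day 7, against 11.21 and 11.14 in iPSC, a rise of 1.15 ± 0.07 (adjusted p = 3.59e-09, limma). Klf4 was likewise higher, with 10.37 and 10.40 on day 7, against 9.18 and 9.21 in iPSC. Myc, whose protein drives growth and metabolism genes, read 10.96 and 11.05 on day 7, against 6.57 and 6.28 in iPSC, the largest difference among the factors (4.58 ± 0.09). Sox2, the remaining factor, was lower. The day 7 cells received doxycycline, which switches on the introduced copies of these 4 genes; how much of each signal came from the introduced copies was not tested. On day 18, after withdrawal, the mean level of Myc was 7.48 and that of Klf4 was 8.77. The day 0 fibroblasts, without doxycycline, had means of 9.09 for Myc and 8.51 for Klf4. Myc was thus already above its iPSC level on day 0, and its day 7 level was 1.92 above day 0.

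The naive pluripotency list, genes typical of the ground state that 2i favours, had 24 of 29 measured genes lower, 2 higher and 3 not called (median -2.94). Esrrb, an orphan nuclear receptor, read 5.36 and 5.39 on day 7, against 10.82 and 10.70 in iPSC, so it sat at background on day 7. Nr5a2, another nuclear receptor, lay under background on day 7 and was lower by at least 4.65. Tfcp2l1 differed by -4.22 and Prdm14, a repressor of Mek signalling genes and of DNA methyltransferases, by -3.80. Zfp42, also known as Rex1, read 3.65 and 4.04 on day 7, against 7.45 and 7.69 in iPSC. Dppa3, a protector of methylated DNA in the zygote, read 5.56 and 5.99 on day 7, against 9.76 and 9.06 in iPSC, and both iPSC arrays lay above both day 7 arrays although they differed from each other. The 2 risers were Klf4 and Fgfbp1, a carrier of fibroblast growth factors (6.57 and 6.84 on day 7, against 5.24 and 5.16 in iPSC).

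**Figure D2:**
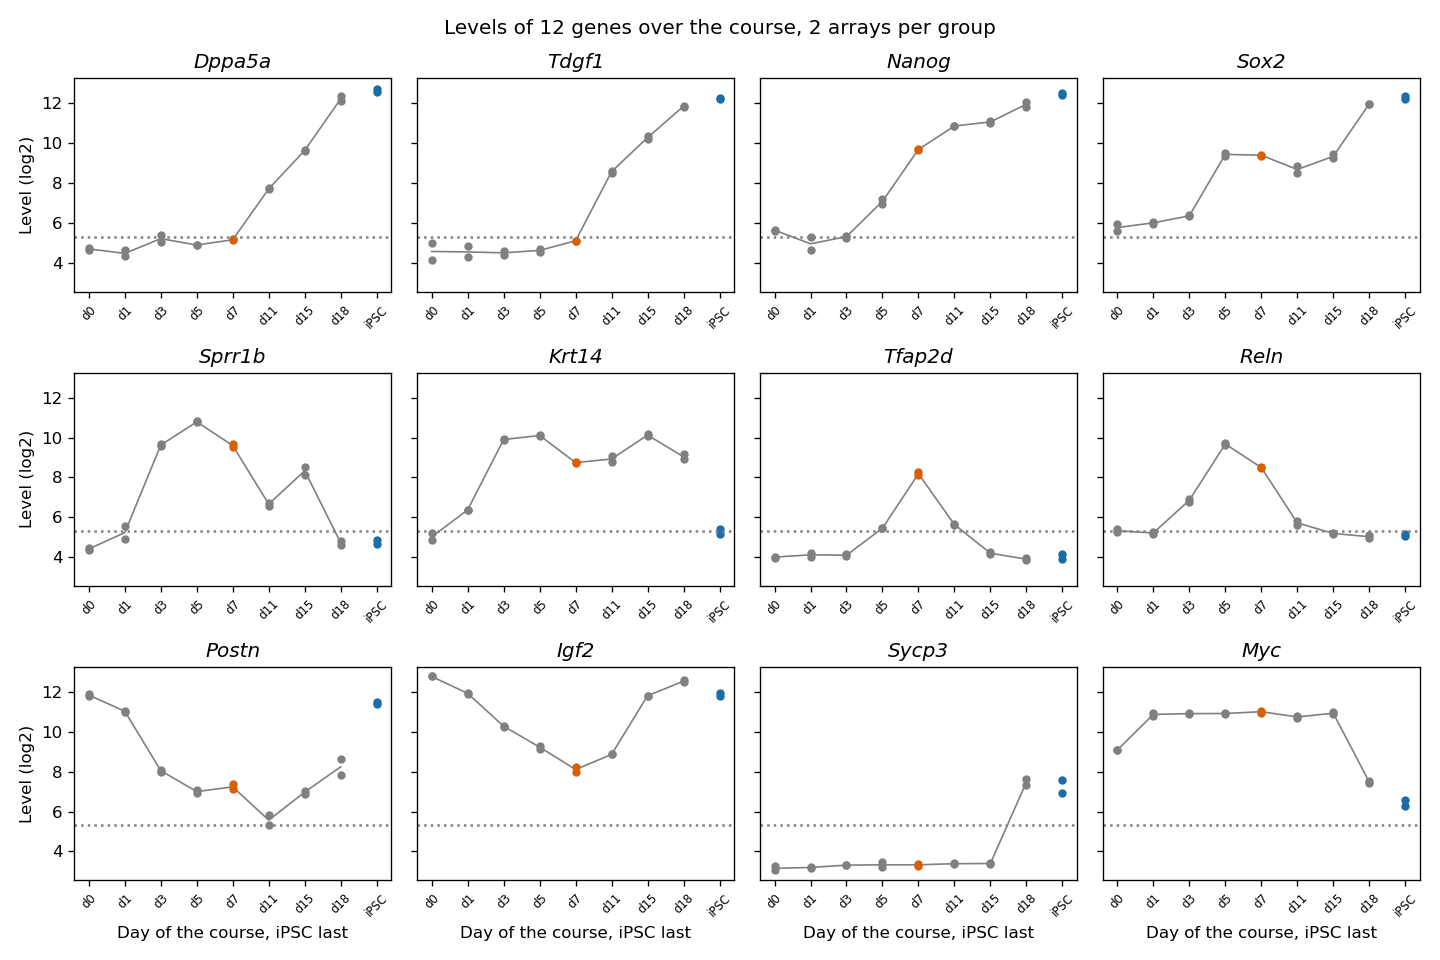
Levels (log2, y axis) of 12 genes on the 2 arrays of each sampling day and of iPSC (x axis); grey lines join the day means, orange marks day 7, blue marks iPSC and the dotted line is background. Dppa5a and Tdgf1 are at background on day 7 and reach 7.72 and 8.58 by day 11, while Sycp3 stays under background through day 15.

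The formative and primed list, genes of the epiblast as it prepares to differentiate, was split. Of 24 measured genes, 5 were higher, 6 lower and 13 not called (median 0.07). That is 20.8% higher and 25% lower, against 6.5% and 7.8% of all genes. Nodal read 5.68 and 6.12 on day 7, against 8.95 and 9.11 in iPSC; Otx2, a homeobox factor of the epiblast, differed by -1.73 ± 0.15, and Foxd3 by -1.74. Higher on day 7 were Sfrp2, a secreted Wnt modulator (3.10 ± 0.19), Lef1, a nuclear mediator of Wnt signals (2.19), and Cdh2, N-cadherin (1.68). These 3 genes are also active in mesenchyme.

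Germline genes were mostly under background on day 7, with 6 and 9 of 30 above it on the 2 arrays, against 20 and 22 in iPSC. Of 30 measured, 18 were lower on day 7, 0 were higher and 12 were not called, and 9 of the 30 lay under background in both groups. At an unadjusted p under 0.05 (limma), 26 were lower and 2 higher (86.7% and 6.67%); of all genes, 5141 were lower (25.4%) and 6268 higher (31%) at that threshold. The list averaged 4.53 and 4.62 on the day 7 arrays, against 6.44 and 6.61 on the iPSC arrays. Dazl, an RNA-binding translational regulator of germ cells, read 3.89 and 3.86 on day 7, against 9.42 and 9.63 in iPSC. Mael, a component of the piRNA pathway, read 3.65 and 3.49 on day 7, against 8.05 and 8.16 in iPSC, and Sycp3, a lateral element of the synaptonemal complex, read 3.37 and 3.29 on day 7, against 6.93 and 7.60 in iPSC. Hormad1, which acts on meiotic chromosome axes, was lower by at least 3.60, and Ddx4, the helicase Vasa, by at least 2.57. All 5 lay under background on day 7. On day 15 the list still averaged 4.92 and 4.93, and on day 18 it averaged 6.68 and 6.89.

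Many germline promoters are known to hold E-boxes and sites for E2F6, through which repressor complexes keep them silent in other cells, so their promoter letters are shown. In the 250 bases before the RefSeq start, the E-box CACGTG (searched on both strands) was present in 9 of the 17 called germline genes with a window, against 7.07% of 15703 genes, 8.55% of the genes higher on day 7 and 8.75% of those lower. TCCCGC, the core letters of E2F sites, was also in 9 of 17, against 23.3% of all genes. These are matches of letters in windows and no measurement of binding. The 120 bases before the start are given for 3 of these genes, 5′ to 3′ on the gene's strand, build GRCm38.p6 (RefSeq), with each CACGTG in capitals: Sycp3 at chr10:88459467-88459586 (+), Hormad1 at chr3:95559557-95559676 (+) and Stk31 at chr6:49395419-49395538 (+).
Sycp3: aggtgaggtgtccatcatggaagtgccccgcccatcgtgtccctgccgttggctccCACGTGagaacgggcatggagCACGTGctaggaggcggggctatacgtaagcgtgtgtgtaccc
Hormad1: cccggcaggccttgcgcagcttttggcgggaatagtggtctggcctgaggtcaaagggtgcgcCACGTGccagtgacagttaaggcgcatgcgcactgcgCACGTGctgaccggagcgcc
Stk31: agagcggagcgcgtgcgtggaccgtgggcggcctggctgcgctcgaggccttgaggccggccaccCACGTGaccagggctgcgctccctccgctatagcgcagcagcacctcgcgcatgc
Sycp3 and Hormad1 each hold 2 copies within this stretch and Stk31 holds 1, at base -55 before the start. Stk31, a kinase-like protein of male germ cells, read 3.20 and 3.14 on day 7, against 5.30 and 5.78 in iPSC.

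Keratinocyte genes moved the other way. Of 29 measured, 17 were higher on day 7, 0 were lower and 12 were not called (58.6% higher, against 6.5% of all genes; median 1.58). At an unadjusted p under 0.05 (limma), 26 were higher and 1 lower (89.7% and 3.45%, against 31% and 25.4% of all genes). The list covers the basal keratins, their suprabasal partners and the cornified envelope, the protein shell that dying epidermal cells build. Krt14, the keratin of basal epidermis, read 8.73 and 8.76 on day 7, against 5.18 and 5.40 in iPSC, and Krt17 read 8.82 and 8.69 on day 7, against 6.82 and 6.44 in iPSC. Sprr1a and Sprr1b, small proline-rich proteins crosslinked into the envelope, read 10.53 and 10.39 on day 7, against 7.08 and 6.66 in iPSC for Sprr1a and 9.68 and 9.52 on day 7, against 4.87 and 4.65 in iPSC for Sprr1b. Ivl, involucrin, read 6.73 and 6.39 on day 7, against 4.57 and 4.33 in iPSC. Lgals7, galectin-7, differed by 2.78 ± 0.32 and Crct1 by 3.57 ± 0.14. Krtdap, a differentiation-associated secreted protein, lay under background in iPSC and was higher by at least 2.56. The genes had been low in the fibroblasts too: the list averaged 5.17 and 5.22 on day 0, 7.04 and 6.99 on day 7 and 5.29 and 5.30 in iPSC. Sprr1a and Sprr1b are related copies, and probes that read both would blur their values.

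Several of the epidermal genes lie together in a cluster on chromosome 3. The letters TGANTCA, with any base at N, were searched on both strands of the 250 bases before their starts. They cover TGACTCA and TGAGTCA, which AP-1 dimers of Fos and Jun recognise, but also TGAATCA and TGATTCA, which are looser matches. The 13 motifs searched gave matches of letters in windows, and binding was not tested. Among the 10 called keratinocyte genes with a window, TATAAA was in 5 (against 11.5% of all genes) and CACCC in 8 (against 54.3%). TCCCGC was rarer there than among all genes (10%, against 23.3%). TGANTCA was in 6.1% of all genes, 5.7% of the genes higher on day 7 and 3.78% of those lower. Of the 10 called keratinocyte genes with a window, 5 held it. The 160 bases before the start of 3 of them follow, 5′ to 3′ on the gene's strand, build GRCm38.p6 (RefSeq), with the motif in capitals: Sprr1a at chr3:92485882-92486041 (-), Sprr1b at chr3:92438780-92438939 (-) and Ivl at chr3:92573736-92573895 (-).
Sprr1a: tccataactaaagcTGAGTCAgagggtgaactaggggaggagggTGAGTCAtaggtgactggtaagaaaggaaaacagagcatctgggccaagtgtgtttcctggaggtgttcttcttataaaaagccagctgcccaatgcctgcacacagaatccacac
Sprr1b: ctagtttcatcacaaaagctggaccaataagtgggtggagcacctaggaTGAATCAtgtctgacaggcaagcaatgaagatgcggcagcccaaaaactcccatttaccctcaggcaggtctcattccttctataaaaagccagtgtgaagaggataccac
Ivl: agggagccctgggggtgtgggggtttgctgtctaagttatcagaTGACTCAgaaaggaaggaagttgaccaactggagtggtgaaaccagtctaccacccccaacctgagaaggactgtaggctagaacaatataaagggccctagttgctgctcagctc
The copies start at bases -146 and -116 in Sprr1a, -111 in Sprr1b and -116 in Ivl, counted back from the start. The copy in Sprr1b reads TGAATCA and is thus a looser match.

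Genes of AP-1 subunits were higher on day 7 than in iPSC. They belong to the list of immediate targets of the kinase Erk, which Mek activates and which the 2i medium of the iPSC blocks upstream. Of 22 measured, 9 rose, 1 fell and 12 were not called (median 0.56). The rises were 40.9% and the fall 4.55%, against 6.5% and 7.8% of all genes. The list averaged 8.85 and 8.82 on day 0, 7.99 and 7.98 on day 7 and 7.19 and 7.11 in iPSC, so day 7 lay below day 0. Fos (9.32 and 9.35) and Jun (10.76 and 10.78) were likewise higher on day 0 than on day 7. Fos read 8.40 and 8.43 on day 7, against 6.19 and 6.01 in iPSC, Fosl1 8.32 and 8.34 on day 7, against 6.67 and 6.21 in iPSC and Jun 10.36 and 10.34 on day 7, against 8.43 and 8.45 in iPSC. Egr1, a zinc finger factor induced within minutes of growth stimulation, read 10.76 and 10.76 on day 7, against 8.28 and 8.18 in iPSC. Spry4, a feedback inhibitor of the pathway, differed by 1.56 ± 0.20. Etv5, an Ets factor that is both an Erk target and part of the pluripotency network, was the only called gene of the list to be lower, with 6.33 and 6.38 on day 7, against 8.62 and 8.51 in iPSC. Of the Wnt target list, on which a Gsk3 inhibitor would act, 3 of 21 measured genes rose and 4 fell (14.3% and 19%, against 6.5% and 7.8% of all genes). Axin2 (-1.24 ± 0.20) and Tcf7 (-2.47 ± 0.11) were among the falls. The medium differs between the groups as a whole, and its part in these values was not tested.

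The neural list also had higher means on day 7 than at either end: 5.94 on both day 0 arrays, 7.03 and 7.09 on day 7 and 6.18 and 6.06 in iPSC. Of 24 measured, 11 rose, 1 fell and 12 were not called (median 0.45). The rises were 45.8%, against 6.5% of all genes, and the fall 4.17%, against 7.8%. Pax6, a homeobox factor of neural progenitors, read 8.68 and 8.50 on day 7, against 5.03 and 5.35 in iPSC. Reln, the secreted guidance protein reelin, read 8.53 and 8.46 on day 7, against 5.09 and 5.17 in iPSC. Tubb3, a neuronal tubulin, read 8.62 and 8.71 on day 7, against 6.26 and 5.41 in iPSC. The iPSC arrays of Tubb3 were further apart than its day 7 arrays and still did not reach them. Nrcam, a neuronal adhesion molecule, differed by 3.02 ± 0.30, and Map2, a dendritic microtubule protein, by 1.83 ± 0.42. Nes, nestin, was the gene that fell (-1.43 ± 0.13). Dcx, a defining marker of young neurons, stayed under background in every group. Pou3f4, a neural POU factor outside the list, read 9.86 and 9.91 on day 7, against 5.51 and 4.86 in iPSC, and Sv2c, a synaptic vesicle protein, read 9.36 and 9.33 on day 7, against 4.53 and 4.65 in iPSC.

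**Figure D3:**
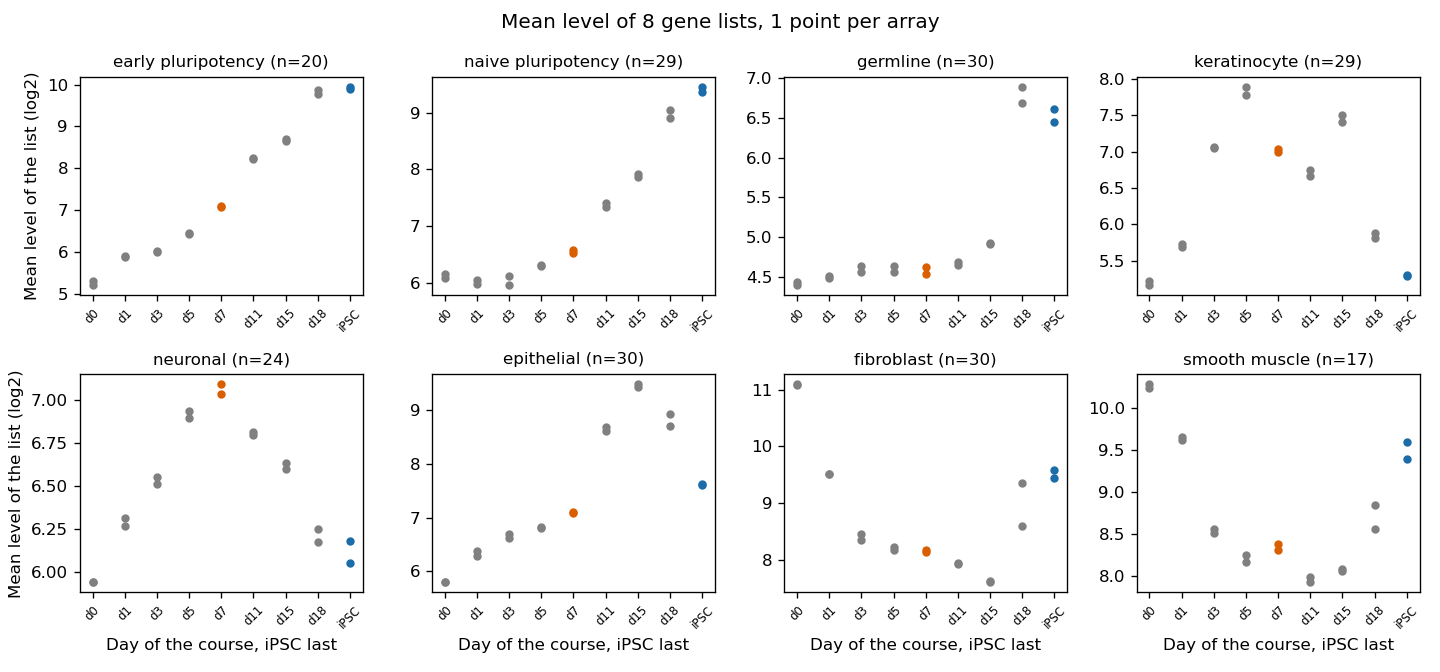
Mean level (log2, y axis) of 8 gene lists, 1 point per array, over the sampling days with iPSC last (x axis); orange is day 7, blue is iPSC and the number of measured genes is in each title. The neural list is at its highest on day 7 (7.03 and 7.09), the keratinocyte list on day 5, and the epithelial list on day 15; the fibroblast list is lower on day 7 (8.17 and 8.14) than in iPSC (9.59 and 9.43).

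Among the 20 largest rises, 8 genes had their highest group mean of the whole course on day 7, against 1848 of all 20233 genes. Choosing genes by their excess on day 7 favours such a maximum, so the count is only a description. In 16 of the 20 the day 0 level was nearer to iPSC than to day 7, against 59.3% of all genes called higher. Akr1c18, a hydroxysteroid dehydrogenase that inactivates progesterone, read 11.22 and 11.18 on day 7, against 4.92 and 4.58 in iPSC, and was higher by at least 5.88 on the log2 scale. Fndc3c1, a fibronectin type III domain protein, read 10.17 and 10.27 on day 7, against 4.34 and 4.16 in iPSC, and Rgs6, a regulator of G protein signalling, read 9.63 and 9.63 on day 7, against 4.32 and 4.42 in iPSC. All 3 lay under background in iPSC. Mbnl3, a muscleblind RNA-binding protein, was measurable in both groups, with 11.59 and 11.64 on day 7, against 6.53 and 6.26 in iPSC. Fetub, the protease inhibitor fetuin-B, differed by 4.41 ± 0.10, Adh7, an alcohol dehydrogenase that acts on retinol, by 4.20 ± 0.20, and Shisa3, an inhibitor of Wnt and FGF receptors, by 4.18 ± 0.15. Meox2, a homeobox factor of mesoderm, read 9.07 and 9.06 on day 7, against 5.27 and 4.77 in iPSC, with a day 0 mean of 8.35.

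Over the whole course, 628 of the 20233 genes had both day 7 arrays above every other array and 328 had both below. Tfap2d, a member of the AP-2 transcription factor family, stood out most: 8.26 and 8.11 on day 7, against 4.18 and 3.90 in iPSC, and group means of 5.46 on day 5 and 5.64 on day 11. It exceeded the next highest group mean by 2.55 on the log2 scale. Isl1, a LIM homeobox factor of motor neurons and heart progenitors, read 7.87 and 7.58 on day 7, against 5.36 and 5.57 in iPSC, with 6.34 on day 11. Rapgef4, the cAMP-activated exchange factor Epac2, read 10.64 and 10.57 on day 7, against 6.47 and 6.08 in iPSC, with 9.27 on day 11. Hhip, a decoy receptor for Hedgehog ligands, had a day 7 mean of 8.24, against 5.07 in iPSC, and Slc10a4, a vesicular transporter of cholinergic neurons, 7.24, against 4.20 in iPSC. At the other extreme Igf2, the growth factor imprinted in embryos, was at its lowest on day 7, with 8.25 and 7.97 on day 7, against 11.95 and 11.81 in iPSC, and a day 0 mean of 12.77.

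Fibroblast genes were lower on day 7 than in iPSC. Of 30 measured, 20 fell, 1 rose and 9 were not called (median -1.37). Postn, the matrix protein periostin, read 7.36 and 7.11 on day 7, against 11.48 and 11.41 in iPSC, with a day 0 mean of 11.83. Col1a1, the main chain of type I collagen, read 9.10 and 9.03 on day 7, against 11.62 and 11.44 in iPSC, and its partner Col1a2 read 7.94 and 7.84 on day 7, against 10.87 and 10.63 in iPSC. Lox, which crosslinks collagen, differed by -2.70 ± 0.16, and Fbln1, a fibulin of the matrix, by -2.83 ± 0.07. The riser was S100a4, a calcium-binding protein (2.00 ± 0.23). Contractile genes of smooth muscle behaved alike, with 10 of 17 measured genes lower, 0 higher and 7 not called: Des, desmin, read 5.81 and 5.83 on day 7, against 10.22 and 9.97 in iPSC, and Cnn1, calponin, differed by -2.79 ± 0.14.

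The defining markers of fibroblasts were measured beside these lists. All 7 markers were above background in both groups, and their mean per array lay between 7.52 and 7.60 on day 7 and between 9.48 and 9.67 in iPSC, with 11.32 to 11.34 on day 0. On day 15 it lay between 6.65 and 6.75, and on day 18 between 8.15 and 9.14. All 7 pluripotent markers were above background in iPSC too (10.76 to 10.80) and 4 of 7 on day 7 (5.78 to 5.96). Since the iPSC line was kept with or without feeder fibroblasts, and no array of feeder cells alone was used here, the part of feeder RNA in these values was not tested. Of the genes lower on day 7, 656 (41.5%) had a day 0 level nearer to iPSC than to day 7, as these matrix genes did. Without the genes whose day 0 level lay nearer the higher of day 7 and iPSC, 780 higher and 923 lower genes are left, an alternative chosen after seeing the data.

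Regulators of the mesenchymal state were called in both directions: 4 of 23 measured genes rose, 7 fell and 12 were not called (median -0.58). The rises were 17.4% and the falls 30.4%, against 6.5% and 7.8% of all genes. Tgfbi, a matrix protein induced by TGF-beta, read 6.31 and 6.62 on day 7, against 9.64 and 9.59 in iPSC, and Ccn2, another target of that pathway, differed by -1.72 ± 0.09. Zeb2, a repressor of E-cadherin, was higher on day 7, with 8.63 and 8.69 on day 7, against 7.01 and 6.49 in iPSC. Snai1, Snai2 and Zeb1, 3 repressors of the same promoter, were not called, with differences of -0.37, -0.58 and -0.71. Thy1, a surface antigen of fibroblasts, read 7.95 and 7.97 on day 7, against 9.08 and 8.77 in iPSC, and was not called either (-0.97).

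Epithelial genes were called in both directions. Of 30 measured, 5 were higher, 12 lower and 13 not called (median -0.49). This was 16.7% higher and 40% lower, against 6.5% and 7.8% of all genes. Cdh1, E-cadherin, read 8.06 and 8.11 on day 7, against 10.36 and 10.41 in iPSC, and Epcam, an adhesion molecule of epithelia and stem cells, read 7.33 and 7.32 on day 7, against 8.48 and 8.73 in iPSC. Dsg2, a desmosomal cadherin, differed by -3.54 ± 0.18, and Ocln, occludin of tight junctions, was lower by at least 2.19, being under background on day 7. Above iPSC were Dsp, desmoplakin (10.40 and 10.42 on day 7, against 8.22 and 8.07 in iPSC), Krt8, a keratin of simple epithelia (9.64 and 9.52 on day 7, against 7.00 and 7.33 in iPSC), Dsc2, a desmosomal cadherin (2.15 ± 0.13), and Cldn3, a claudin of tight junctions (1.64 ± 0.11). Tight-junction and desmosome genes were found on both sides.

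**Figure D4:**
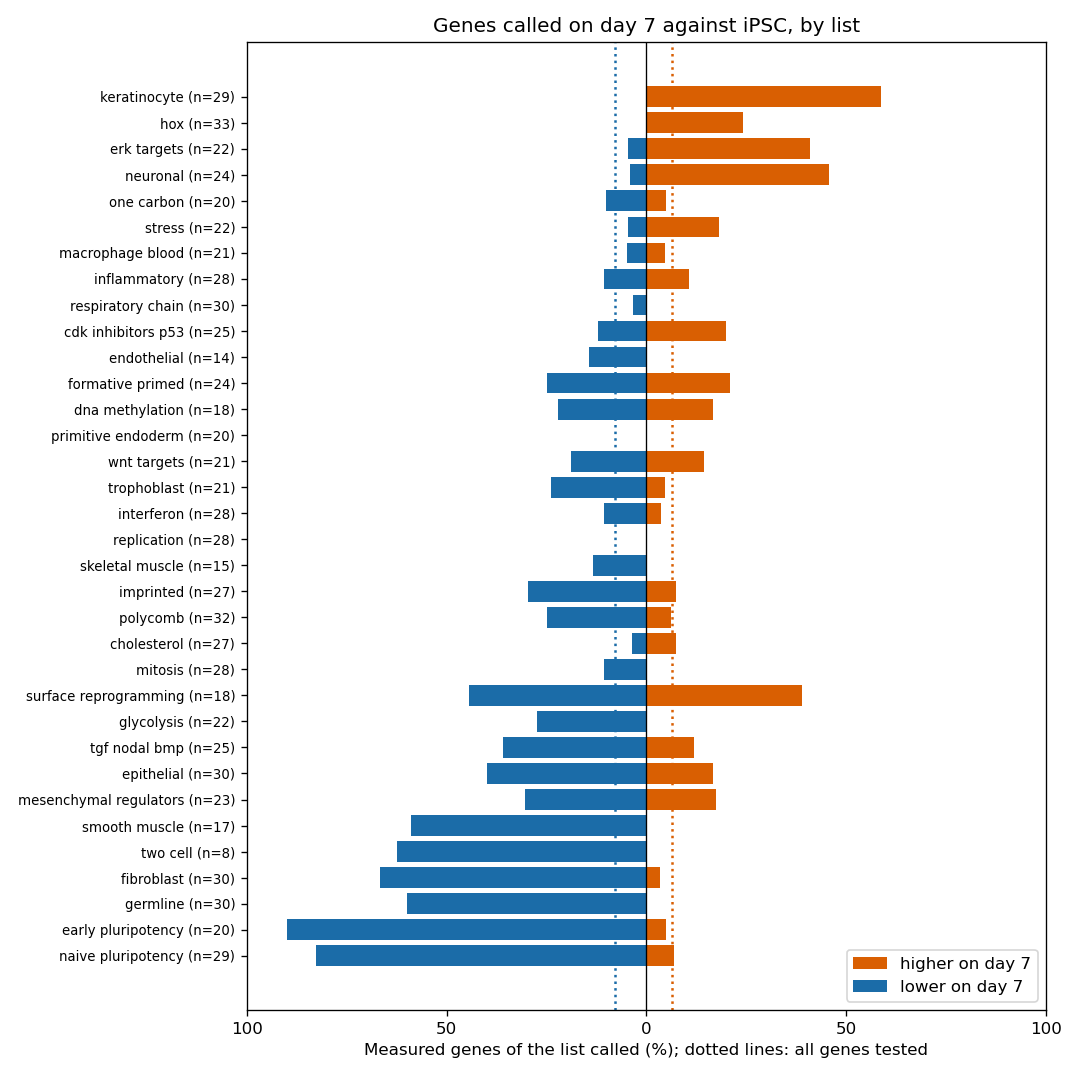
Share of measured genes of each list called higher (orange, to the right) or lower (blue, to the left) on day 7 against iPSC, in % (x axis), for 34 lists (y axis) ordered by their median difference; dotted lines mark all genes tested (6.5% higher and 7.8% lower). Keratinocyte genes are at the top with 58.6% higher, and naive and early pluripotency genes at the bottom with 82.8% and 90% lower.

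Genes of surface proteins used to sort reprogramming cells changed in both directions. Of 18 measured, 7 were higher and 8 lower (38.9% and 44.4%, against 6.5% and 7.8% of all genes). Cd24a, a mucin-like antigen, read 11.62 and 11.55 on day 7, against 8.27 and 8.48 in iPSC, and Cd44, the hyaluronan receptor, was higher by 1.14 ± 0.18. Pecam1 read 5.29 and 5.25 on day 7, against 9.79 and 9.84 in iPSC, and Alpl, the alkaline phosphatase of pluripotent cells, read 7.42 and 7.46 on day 7, against 10.95 and 11.11 in iPSC. Icam1 was lower by 1.25 on the log2 scale, so that bulk RNA of Cd44 was higher and that of Icam1 lower on day 7 than in iPSC. Surface protein and single cells were not measured.

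Of 33 measured Hox genes, which mark position along the body, 8 rose on day 7 against iPSC, 0 fell and 25 were not called (median 0.63). The rises were 24.2%, against 6.5% of all genes. At an unadjusted p under 0.05 (limma), 23 were higher and 1 lower (69.7% and 3.03%, against 31% and 25.4% of all genes). Hoxd13 read 8.87 and 8.62 on day 7, against 6.39 and 6.32 in iPSC, and Hoxa9 read 7.87 and 7.84 on day 7, against 6.29 and 6.26 in iPSC. The others that rose included Hoxd4, Hoxd8, Hoxd9, Hoxd10 and Hoxd11, neighbours of Hoxd13 in 1 cluster.

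Of the Polycomb and histone methylation list, 2 of 32 measured genes rose, 8 fell and 22 were not called (6.25% higher and 25% lower, against 6.5% and 7.8% of all genes; median -0.18). Cbx7, the Polycomb chromobox of stem cells, read 7.31 and 7.16 on day 7, against 9.98 and 10.13 in iPSC, and Mtf2, a Polycomb-associated Tudor protein, differed by -2.55 ± 0.10. Bmi1, a subunit of the same repressive complex 1, was higher by 1.30 ± 0.12. Among DNA methylation genes Tet1, a dioxygenase that oxidises methylcytosine, read 8.11 and 8.05 on day 7, against 11.02 and 11.14 in iPSC, and Tet3, of the same family, read 9.01 and 8.95 on day 7, against 6.85 and 6.69 in iPSC. These 2 enzymes thus differed in opposite directions.

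Of 25 measured signalling genes of the Nodal and BMP branch, 9 fell, 3 rose and 13 were not called (36% lower, against 7.8% of all genes). Bmp4 read 6.01 and 5.99 on day 7, against 8.29 and 8.06 in iPSC, and Lefty2, a Nodal inhibitor, 4.86 and 4.70 on day 7, against 8.26 and 7.78 in iPSC. The 3 risers were all Id genes, inhibitors of basic helix-loop-helix factors and classical BMP targets: Id1 read 9.88 and 9.84 on day 7, against 6.89 and 6.91 in iPSC, Id2 differed by 1.47 and Id3 by 1.15 (adjusted p = 0.0147, limma).

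Of 28 measured replication genes 0 were called by limma, with 6 higher and 10 lower at an unadjusted p under 0.05 (21.4% and 35.7%, against 31% and 25.4% of all genes). Of 28 mitotic genes, 3 were lower (Cenpf -1.67, Bub1 -1.20 and Ccnb2 -1.09) and 0 higher, so 10.7% were lower, against 7.8% of all genes. At an unadjusted p under 0.05 (limma), 20 of the mitotic genes were lower and 2 higher (71.4% and 7.14%, against 25.4% and 31% of all genes). Their median difference was -0.40. Of 25 Cdk inhibitor and p53 genes, 5 rose and 3 fell (20% and 12%, against 6.5% and 7.8% of all genes). The falls were Cdkn1b (-1.19), Sesn1 (-1.18) and Ccnd3 (-1.11). Cdkn2a, the Ink4a and Arf locus that blocks the cycle and reprogramming, read 9.59 and 9.49 on day 7, against 7.87 and 7.99 in iPSC, and Ccnd1, cyclin D1, read 11.38 and 11.36 on day 7, against 9.25 and 9.27 in iPSC. Glycolysis genes had 6 of 22 measured members lower and 0 higher, led by Aldoc (-3.79 ± 0.16), Eno2 (-2.75 ± 0.18) and the glucose transporter Slc2a3 (10.10 and 10.06 on day 7, against 12.72 and 12.77 in iPSC). Of 30 respiratory chain genes the only call was Cox7a1, with 5.80 and 5.82 on day 7, against 9.34 and 9.32 in iPSC. At an unadjusted p under 0.05 (limma), 17 of that list were higher and 7 lower (56.7% and 23.3%, against 31% and 25.4% of all genes). Slc7a11, the cystine transporter that feeds glutathione synthesis, was the strongest riser of the stress list, with 8.44 and 8.43 on day 7, against 4.53 and 4.73 in iPSC.

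The miRNA genes add a cluster that was looked at after its values were seen. Of 285 measured miRNA genes, 6 were higher and 20 lower on day 7. Neither share was above that of all genes (6.5% higher and 7.8% lower). Of the 285, 187 were under background in both groups, 12 called genes among them. The signal on this array comes from precursor or host transcripts, not from the mature miRNA. The 6 genes from Mir17 to Mir92-1 on chromosome 14, made from 1 host transcript that Myc is known to activate, were higher on both day 7 arrays than on both iPSC arrays, by 0.84 to 1.53, and 4 of them were called. Mir19a lay under background in both groups, and Mir17, Mir20a and Mir19b-1 lay under it in iPSC, so the sizes of these 4 differences are not measured exactly. Mir92-1 read 7.41 and 7.22 on day 7, against 5.74 and 5.83 in iPSC, Mir18 read 7.66 and 7.24 on day 7, against 6.43 and 6.33 in iPSC, and the host gene Mir17hg read 7.52 and 7.24 on day 7, against 5.98 and 6.05 in iPSC. Their mature sequences are shown so that the shared seeds can be seen. They are written 5′ to 3′ (RefSeq, GRCm38.p6), with bases 2 to 8, the seed, in capitals:
miR-17-5p: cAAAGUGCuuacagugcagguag
miR-20a-5p: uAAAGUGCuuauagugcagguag
miR-18a-5p: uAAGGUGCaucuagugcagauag
miR-19a-3p: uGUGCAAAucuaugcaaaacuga
miR-19b-3p: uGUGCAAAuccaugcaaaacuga
miR-92a-3p: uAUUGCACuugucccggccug
miR-17-5p and miR-20a-5p have the same seed, as do miR-19a-3p and miR-19b-3p. Lower on day 7 were 10 of 41 genes of the imprinted miRNA cluster on chromosome 12, among them Mir377 (3.88 and 3.84 on day 7, against 5.64 and 6.10 in iPSC), which lay under background on day 7. Of the 41, 23 lay under background in both groups, 4 of the called genes (Mir411, Mir380, Mir300 and Mir154) among them. Mir675, which is cut from the H19 transcript, read 5.50 and 5.11 on day 7, against 9.51 and 9.03 in iPSC.

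Lists of further cell types were counted in the same way. Of 20 measured genes of the primitive endoderm 0 were called by limma (3 higher and 5 lower at an unadjusted p under 0.05, or 15% and 25%, against 31% and 25.4% of all genes), and of 21 trophoblast genes 1 rose and 5 fell, led by Tfap2c, an AP-2 factor of trophoblast and germ cells (6.43 and 6.37 on day 7, against 9.17 and 9.35 in iPSC). Of 21 macrophage and blood genes 13 lay under background in both groups. Lyz2, lysozyme, was higher (8.38 and 8.01 on day 7, against 5.15 and 4.96 in iPSC). Laptm5, a lysosomal protein of blood cells, was lower (7.43 and 7.26 on day 7, against 9.91 and 10.17 in iPSC). Of 4 measured macrophage markers, Ptprc and Adgre1 were under background in both groups, and Csf1r and Tyrobp were above it in both. Of 14 endothelial genes 2 fell (14.3%) and of 15 skeletal muscle genes 2 fell (13.3%), 1 of them Des, against 7.8% of all genes. Of 8 measured genes of the 2-cell stage embryo 5 fell, led by Obox6, an oocyte homeobox gene (3.48 and 3.26 on day 7, against 9.44 and 9.28 in iPSC). Of 28 interferon-response genes 1 rose and 3 fell (3.57% and 10.7%), and of 28 inflammatory genes 3 rose and 3 fell (10.7% and 10.7%). Among all genes 6.5% rose and 7.8% fell.

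The position of the called genes in the course was read from arrays of the other days, which entered the comparison only through the shared estimate of the spread. Of the genes higher on day 7 than in iPSC, 384 (29.2%, against 7.62% of all genes) had risen between day 0 and day 1, and 235 (17.9%, against 2.29%) rose between day 1 and day 5. Of the genes lower on day 7, 374 (23.7%, against 6.54%) had fallen between day 0 and day 1, and 263 (16.7%, against 4.13%) fell between day 1 and day 5. After day 7 the steps were uneven. Between day 11 and day 15, 25 of the higher genes fell (1.9%, against 0.247%), but 36 rose further (2.74%, against 1.66%). Of the lower genes, 118 rose (7.47%, against 1.66%) and 6 fell (0.38%, against 0.247%) in that interval. Between day 15 and day 18, the interval that includes withdrawal of doxycycline and vitamin C, 477 of the higher genes fell (36.2%, against 4.07%) and 587 of the lower genes rose (37.2%, against 4.67%). The 2 arrays of day 18 were further apart than those of any other group, with 264 genes over 2-fold apart.

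**Figure D5:**
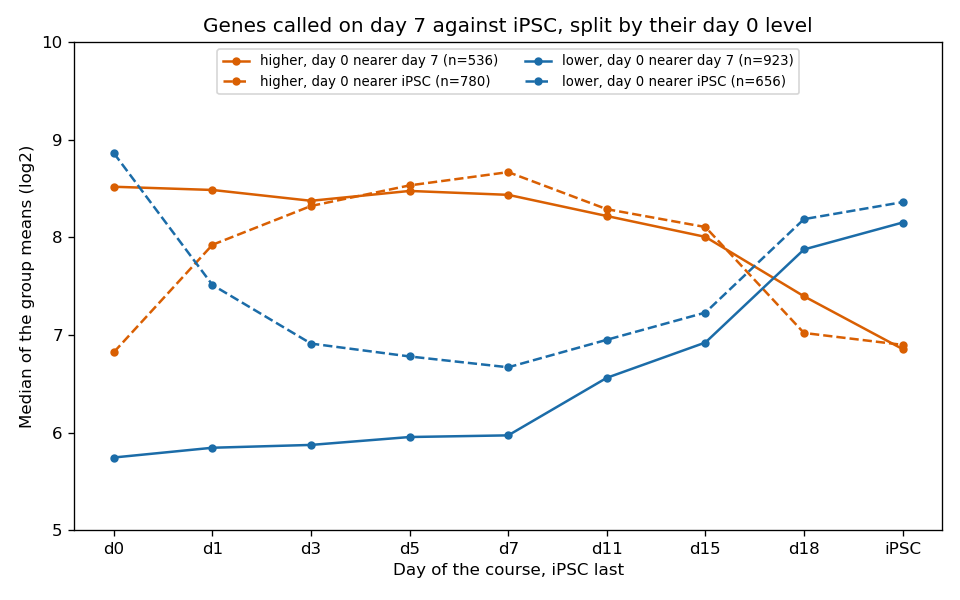
Median over genes of the group means (log2, y axis) along the course with iPSC last (x axis) for the called genes, split by whether their day 0 mean lay nearer to day 7 (solid) or nearer to iPSC (dashed); orange is higher and blue is lower on day 7 than in iPSC. The split classes have 536, 780, 923 and 656 genes in the order of the legend's columns, and the 780 higher genes that started near the iPSC level have medians of 6.82 on day 0 and 8.67 on day 7.

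By the distance between the day 7 and iPSC means, the median higher gene had covered 23.2% on day 11, 35.2% on day 15 and 89.6% on day 18. The median lower gene had covered 15.5%, 28.7% and 81.8% on the same days. Of the higher genes, 731 first passed the halfway level on day 18, and of the lower genes 783 did. Both sets share the day 7 and iPSC arrays with the comparison, so these figures describe the course and were not tested.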

How the data were processed

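Total RNA of 18 arrays, 2 for each of 9 groups, was measured on 1-colour Affymetrix expression arrays. The deposited values are log2 expression levels, which the authors made with RMA, per the submitters' processing notes. No RMA version, genome build or chip definition is given in the sources used. Quantile normalization inside RMA would hide any shift common to most genes. In all, 29643 probe sets had values from 2.12 to 13.717. RefSeq accessions were matched without version to a gene table of GRCm38.p6: 27260 probe sets had 1 symbol, 0 several and 2383 none. Each gene was represented by its brightest probe set (mean of the 18 arrays), and 3982 of the 20233 genes had more than 1.

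A mean per group was fitted to all 18 arrays with limma 3.58.1 (R 4.3.3), tested on simulated data first, leaving 9 residual degrees of freedom beside a prior of 4.25. Of the called genes, 6 share their values with another gene. Precision is limited by the small number of arrays; a difference had a median SE of 0.0976. Named genes were the 20 largest called rises and falls, up to 6 called members a list, the 10 strongest peaks and troughs on day 7, and a fixed set of pluripotency and fibroblast genes; where a list had a result, further members of it could be named, and the miRNA genes and promoters shown were chosen after their values were seen. The members and the 34 lists were chosen with earlier results of these data known. Promoter windows (250 bases, 15703 genes) were searched on both strands for 13 motifs: CACGTG for the E-box, TCCCGC for E2F, TGANTCA for AP-1, ATGCAAAT for the octamer, TTTGCAT for its shorter form (which overlaps the octamer on the other strand), GCCNNNGGC for AP-2, TGACGTCA for the cAMP response element, TGACNNNGC and a longer form of it for the antioxidant response element, CATTCC for TEAD, AAGGTCA for Esrrb, CACCC for Klf and TATAAA for the TATA box. Alternatives covered the arrays fitted, the normalization, dim genes, probe set choice, moderation, thresholds, single arrays and the replicate number.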

Additional observations from a re-analysis of the deposited data

How the results depend on the processing

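The counts of genes higher and lower on day 7 (1316 and 1579) stayed within 1.5 times under 4 arrays alone, another quantile normalization, a filter on dim genes, the mean of probe sets, other moderation and without day 18. Leaving out 1 array in turn gave 1272 to 1360 higher and 1571 to 1596 lower. Median centring moved all differences up by 0.103 and gave 1549 higher and 1358 lower, so that the share of rises went to 53.3% of calls, against 45.5%. A difference of at least 1.5 left 566 higher and 802 lower, and a test against the 2-fold threshold itself (limma's treat) left 738 and 979; both demand more by construction. Without the genes whose day 0 level lay nearer the higher of day 7 and iPSC, 780 and 923 remained by construction. Replicate numbers did not pair the arrays: the correlation of same-numbered deviations was -0.045 for day 7 and iPSC, and 6 of 36 pairs of groups passed 0.1. The replicate block gave 1316 higher and 1580 lower, and left the counts of the other intervals at 2865, 1300, 386 and 1769. For named genes, 9 values lost and 1 gained its call, each when 1 array was left out: Ascl2, Atf3, Axin2, Cfap206, Ddx58, Tead4 and Xbp1 lost it, and Thy1 gained it without the second iPSC array. Of the counts and medians of lists, 40 moved and 470 did not (moved meaning a count by over 1.5 times, a median by over its spread between array pairs); the 40 arose under another quantile normalization or without 1 array. No named gene that was called changed direction under these alternatives; the medians of the trophoblast, primitive endoderm, Wnt target, DNA methylation, endothelial and skeletal muscle lists, all near 0, changed sign under at least 1 of them. Arrays near background limit 233 of the rises and 404 of the falls to bounds.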

Other observations

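Sex-linked and imprinted genes differed between the groups. Xist, the RNA that silences an X chromosome in female cells, read 5.66 and 5.80 on day 7, against 8.60 and 8.46 in iPSC, with 5.10 and 4.92 on day 0. Of 6 genes of the Y chromosome above background on day 7 or in iPSC, 4 were lower on day 7. Genes high only in iPSC pass that filter, so the share does not describe all measured Y genes. Ddx3y read 4.67 and 4.74 on day 7, against 7.91 and 8.03 in iPSC, with 5.74 and 5.80 on day 0, and Eif2s3y read 3.21 and 3.29 on day 7, against 6.16 and 6.35 in iPSC. Uty and Zfy1 were the others. Both Xist and Y-linked genes were therefore high on the same iPSC arrays and low on day 7, and whether the groups hold cells of the same sex, or cells of more than 1 origin, was not tested. Ddx3y and Uty were also high on day 5 (7.66 and 7.83 for Ddx3y), between lower levels on day 3 and day 7. Of 27 measured imprinted genes, 2 rose and 8 fell. The rises were 7.41%, near the 6.5% of all genes, and the falls 29.6%, against 7.8%. Meg3, a maternally expressed long RNA, read 8.63 and 8.51 on day 7, against 11.60 and 11.46 in iPSC, and Mirg, which shares its values with Mir410, read 4.21 and 3.97 on day 7, against 6.75 and 6.86 in iPSC. Nnat, a neuronal proteolipid, read 8.66 and 8.62 on day 7, against 6.46 and 6.72 in iPSC.

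Counted by chromosome over genes above background in either group, 14.3% of the genes of chromosome 3 and 14.8% of those of chromosome X were higher on day 7, while the other autosomes ranged from 5.96% to 12.5%. On X another 13.4% were lower. These shares are descriptions and were not tested. Among metabolic genes, Tdh, threonine dehydrogenase, read 7.11 and 7.14 on day 7, against 10.01 and 9.79 in iPSC, and Amt, of the glycine cleavage system, was lower by 3.34 on the log2 scale. They were the 2 falling genes of 20 in one-carbon metabolism (10%, against 7.8% of all genes), where Shmt2, a mitochondrial serine enzyme, rose by 1.05. Most of that list leaned the other way, with a median of 0.44. At an unadjusted p under 0.05 (limma), 14 were higher and 3 lower (70% and 15%, against 31% and 25.4% of all genes). Of 27 cholesterol genes 2 rose and 1 fell (7.41% and 3.7%, against 6.5% and 7.8% of all genes). At an unadjusted p under 0.05 (limma), 10 of the cholesterol genes were higher and 16 lower (37% and 59.3%).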
